A study of Mus musculus with 10 samples.

Results

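Retinoid pathway genes known from the meninges were followed in the hippocampus of mice 4 days after subarachnoid haemorrhage (SAH), a bleed into the fluid space around the brain. The group holds 9 of the 24391 gene names counted. They were chosen by name for their roles in retinoic acid handling, with earlier results of these data known: Rbp4 and Stra6 for retinol supply, Rdh10, Aldh1a1, Aldh1a2 and Aldh1a3 for synthesis, Crabp1 and Crabp2 for binding, and Cyp26b1 for breakdown. Each had counts in all 10 mice, and 9 of 9 passed the filter on low counts.

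RNA of the whole hippocampus of both sides was sequenced from male C56BL/6J mice (spelled as in the methods) aged 10 to 14 weeks. There was 1 library per mouse, and no drug was under study. In SAH mice (n = 4) a filament passed up the carotid artery pierced the circle of Willis, the arterial ring under the brain, and mice were kept where cerebral blood flow dropped far enough. Sham mice (n = 3) had the same filament without the puncture, and Naive mice (n = 3) had no operation. The operations were done under isoflurane anaesthesia, and the methods do not say whether Naive mice received it. Control means Sham and Naive together (n = 6), as the study pooled them. The labels and methods name no genetic change in any group. Mice are numbered as in the labels, SAH 1 to 4, Sham 5 to 7 and Naive 8 to 10.

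Retinoic acid is the active form of vitamin A. Retinol reaches cells bound to the carrier Rbp4, may enter through the receptor Stra6, is oxidised to retinaldehyde by enzymes such as Rdh10, and is then made into retinoic acid by the Aldh1a enzymes. Crabp1 and Crabp2 carry retinoic acid inside the cell, nuclear receptors of the RAR and RXR families read it at DNA, and Cyp26 enzymes degrade it. In the brain the meninges, the connective tissue layers around it, are a well-known source of retinoic acid, and their fibroblasts express Aldh1a2.

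Aldh1a2 and Crabp2 were higher in SAH than in control, by 1.98-fold and 2.92-fold. For both genes the lowest SAH mouse lay above the highest control mouse, while against Sham mice alone the folds were 1.58 and 2.27 and did not pass the threshold by edgeR. The other 7 members did not pass it. Of 18 meningeal fibroblast markers 14 were also called higher in SAH against control, beside 3.13% of all genes, and 5 against Sham mice alone. Relative to their mean, Aldh1a2 differed by 0.11 on the log2 scale between SAH and control, within the spread between mice. Crabp2 differed by 0.58 (exact permutation p = 0.0476). That difference missed 0.05 with the median over the markers (exact p = 0.0952) and in 7 of 10 sets with a mouse left out. The receptors did not pass the threshold, and of 7 tested retinoic acid-induced genes 1, Tgm2, was called higher.

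Libraries held between 19743388 and 27254655 counts. Levels of 1 gene are given as CPM, counts set to the same TMM-scaled library total, and levels of different genes are compared only as RPKM, which also divides by the exon length. Called means an adjusted p under 0.10 in edgeR's quasi-likelihood test over all genes tested. Hippocampal excitatory neuron markers (8 genes) summed to 2507 to 2613 CPM over the 10 mice, as fits the dissected tissue. The sums for other cells of the brain's coverings and cavities varied more. Meningeal fibroblast markers ran from 250 to 478 CPM in SAH, from 225 to 238 in Sham and from 176 to 185 in Naive mice. Choroid plexus epithelium markers (14 genes) were at 859 CPM or more in SAH 3, SAH 4 and Sham 7 and at 227 or less in the other 7 mice. By edgeR 0 of the 14 choroid plexus markers were called in SAH against control (3 at an unadjusted p under 0.05, 0 by DESeq2), with 14 of 14 log2 fold changes above 0 and a median of 1.04, and 2 in SAH against Naive (12 at an unadjusted p under 0.05, 6 by DESeq2, median log2 fold change 2.23). In Sham against Naive 0 were called (6 at an unadjusted p under 0.05, 0 by DESeq2), with 14 of 14 above 0 and a median of 1.62. SAH 3 also differed most from the others of its group over all genes. In bulk tissue fewer cells of a type cannot be told apart from less RNA per cell, and this holds for rises as well.

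Promoter sequences are shown because retinoic acid acts on several of its own pathway genes through DNA elements. RefSeq windows (build GRCm38.p6, 250 bases before to 50 after a start) matched 6 of the 9 members with 11 windows. Aldh1a3, Crabp2 and Rdh10 had no match. The search was for direct repeats of the half-sites AGGTCA (the consensus), GGGTCA (a first variant), AGTTCA (a second variant) and GGTTCA (a last variant), in any pairing, spaced by 1, 2 or 5 bases, on both strands. The 250 bases before the Aldh1a2 start (chr9:71215539-71215788, plus strand) had 0 half-sites and 77.6% G or C. The 100 bases before the starts of Rarb (chr14:16575477-16575576, minus strand) and Cyp26a1 (chr19:37697708-37697807, plus strand), both textbook targets of retinoic acid, are set beside it. All are written 5′ to 3′ in the direction of the gene, and capitals mark half-sites.
Aldh1a2: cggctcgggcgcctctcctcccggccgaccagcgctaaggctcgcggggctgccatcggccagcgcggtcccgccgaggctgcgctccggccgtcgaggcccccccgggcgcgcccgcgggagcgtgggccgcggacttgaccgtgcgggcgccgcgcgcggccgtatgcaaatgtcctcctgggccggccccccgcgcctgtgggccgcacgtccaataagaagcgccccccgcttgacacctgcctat
Rarb: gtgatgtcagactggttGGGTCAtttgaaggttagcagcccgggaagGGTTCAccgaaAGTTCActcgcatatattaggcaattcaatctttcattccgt
Cyp26a1: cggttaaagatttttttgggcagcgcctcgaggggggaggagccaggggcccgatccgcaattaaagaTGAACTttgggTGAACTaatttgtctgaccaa
In Rarb and in Cyp26a1 a pair of half-sites was spaced by 5 bases, a repeat that begins 53 bases before the start in Rarb and 32 before it in Cyp26a1. That spacing was found in 0.0974% of 32851 promoters, a spacing of 1 base in 0.222%, a spacing of 2 in 0.268%, and at least 1 half-site in 43.7%. Of the 11 member windows, 0 held a repeat of any of the 3 spacings. No match says only that these letters are not in these windows, and a match is not a shown binding site.

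Aldh1a2 encodes the retinaldehyde dehydrogenase that meningeal fibroblasts use to make retinoic acid, and lies on chr9:71063596-71144050 (mm9, plus strand, 14 merged exons). Its level was 11.8, 11.1, 7.98 and 8.91 CPM in SAH 1 to 4. In Sham mice it was 6.56, 6.47 and 5.87 CPM, and in Naive mice 3.76, 2.83 and 4.50 CPM. The 3 groups did not overlap: each SAH mouse lay above each Sham mouse, and each Sham mouse above each Naive mouse. These levels rest on 55 to 302 counts per mouse. The rise of Aldh1a2 against control was 0.98 in log2 units (standard error 0.20, edgeR adjusted p = 0.018). Against Naive mice the rise was 1.42 (standard error 0.17, edgeR adjusted p = 0.0017). Against Sham mice alone it was 0.66 (standard error 0.16), which did not pass the threshold (edgeR adjusted p = 0.118, DESeq2 0.0178). Sham mice were 0.76 above Naive mice (standard error 0.18), with an unadjusted p of 0.0013 and an edgeR adjusted p of 1.0.

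Crabp2, a carrier that passes retinoic acid to its nuclear receptors, lies on chr3:87752615-87757294 (plus strand, 4 merged exons). It was the member with the largest fold change, at a low level. SAH 1 to 4 had 3.87, 2.98, 1.52 and 1.88 CPM. Sham mice had 1.24, 1.40 and 0.724 CPM, and Naive mice 0.827, 0.463 and 0.509 CPM. SAH 1 and SAH 2 were well above all others, while SAH 3 exceeded the highest Sham mouse by little and Sham overlapped Naive. Counts were 30 to 81 per SAH mouse and 9 to 38 per control mouse, so counting error is large in the low group. The log2 fold change of Crabp2 was 1.55 against control (standard error 0.32, edgeR adjusted p = 0.0192) and 2.06 against Naive mice (standard error 0.38, edgeR adjusted p = 0.0182). Without Naive 9, in which it had 9 counts, the adjusted p against Naive mice was 0.103. Against Sham mice the difference was 1.19 (standard error 0.34, edgeR adjusted p = 0.215, DESeq2 0.0928). Without SAH 3 both Crabp2 (1.36, edgeR adjusted p = 0.0627) and Aldh1a2 (0.75, edgeR adjusted p = 0.0299) passed the threshold against Sham mice. SAH 3 is the SAH mouse lowest in both genes, so larger differences had to follow. For each gene this was the only 1 of 10 sets with a mouse left out that passed. The edgeR adjusted p in these sets reached 0.563 for Crabp2 and 0.392 for Aldh1a2.

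**Figure D1:**
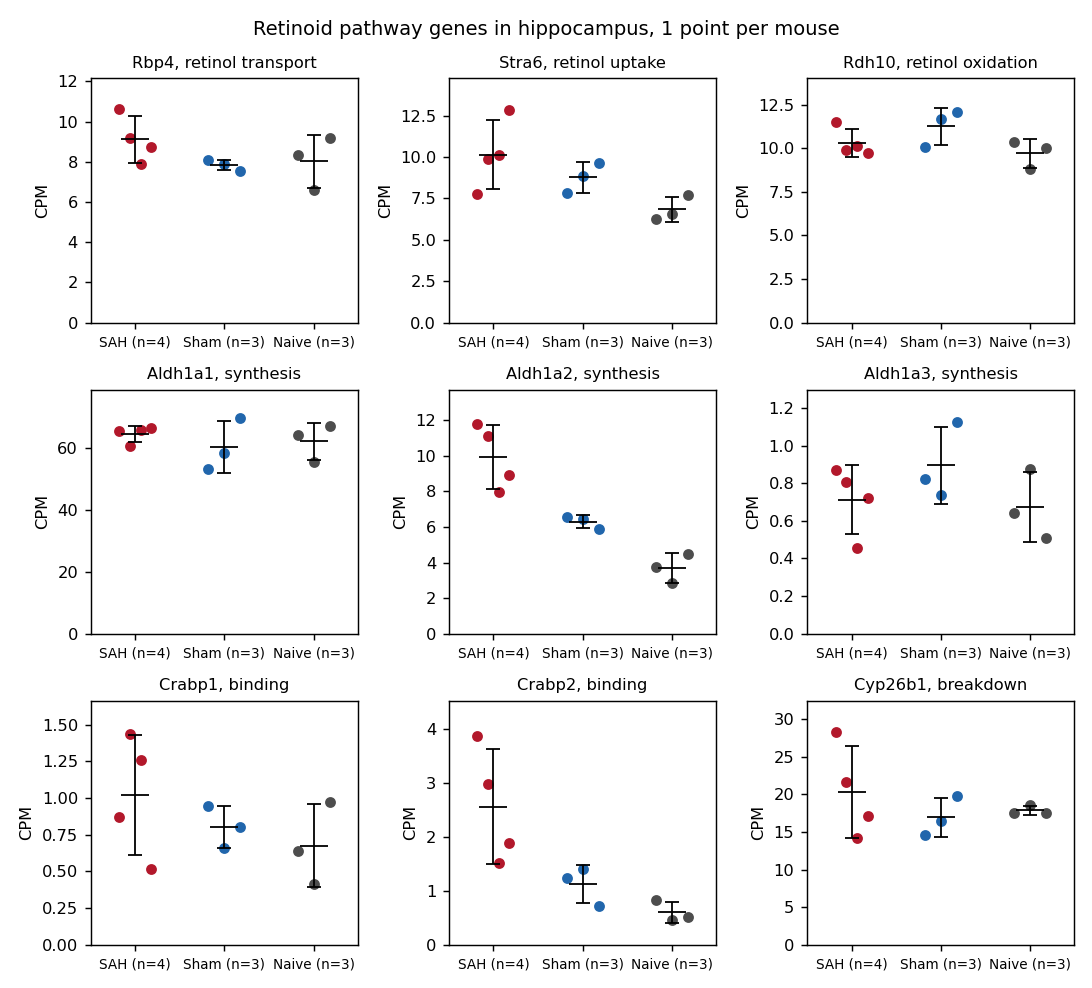
Level of each of the 9 genes in CPM (linear axes from 0, each with its own range) in every SAH, Sham and Naive mouse. Points are mice, and the long and short bars are the mean and SD. For Aldh1a2 the 3 groups are stacked without overlap and for Crabp2 SAH mice lie above all control mice, while the groups of the other genes overlap in at least 1 pair.

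Among the other synthesis genes no difference passed the threshold. Rdh10, which oxidises retinol to retinaldehyde and lies on chr1:16095963-16122631, had 9.71 to 11.5 CPM in SAH mice, 10.1 to 12.1 in Sham mice and 8.79 to 10.4 in Naive mice. Its difference from control was −0.03 on the log2 scale (standard error 0.09, edgeR adjusted p = 0.892). Aldh1a1, a retinaldehyde dehydrogenase with wide expression in the brain, lies on chr19:20676472-20717952 and was the most abundant member. SAH mice had 60.8 to 66.6 CPM of it, Sham mice 53.3 to 69.7 and Naive mice 55.7 to 67.2. Against control Aldh1a1 differed by 0.08 (standard error 0.07, edgeR adjusted p = 0.621). Aldh1a3, the third dehydrogenase of the family (chr7:73535779-73572363), was scarce, with 9 to 28 counts per mouse. It had 0.455 to 0.870 CPM in SAH and 0.509 to 1.13 CPM in control, a difference of −0.12 (standard error 0.26, edgeR adjusted p = 0.837). Aldh1a2 was thus the 1 gene of the 4 for synthesis that was called.

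Stra6, the membrane receptor that takes up retinol from Rbp4, lies on chr9:57976895-58001804. Its level was 7.74, 9.86, 10.1 and 12.8 CPM in SAH 1 to 4, 7.80, 8.86 and 9.66 CPM in Sham mice, and 6.24, 6.58 and 7.68 CPM in Naive mice. Every SAH and Sham mouse was above every Naive mouse, and SAH overlapped Sham. The difference from control was 0.38 (standard error 0.14, edgeR adjusted p = 0.198). From Naive it was 0.57 (standard error 0.16), with an edgeR adjusted p of 0.101 at the edge of the threshold and 0.0296 in DESeq2. Without SAH 1, the SAH mouse with the least Stra6, both were past the threshold (0.48 against control, edgeR adjusted p = 0.0784, and 0.68 against Naive, edgeR adjusted p = 0.0326). Sham exceeded Naive by 0.36 (standard error 0.17, unadjusted p = 0.0496 and adjusted p = 1.0, both from edgeR). With the choroid plexus marker score as a covariate the difference of Stra6 from control was 0.18 (edgeR adjusted p = 0.885). That fit called 141 genes higher over all genes, in place of 470. Choroid plexus markers summed to 110, 227, 1262 and 893 CPM in SAH 1 to 4. Endothelial markers summed to 149, 182, 233 and 285 CPM in the same mice and to 132 to 180 CPM in control, and their part in the result was not tested. Rbp4, the serum and tissue carrier of retinol on chr19:38191110-38199811, had 7.88 to 10.6 CPM in SAH and 6.58 to 9.17 CPM in control. Its difference of 0.20 (standard error 0.10, edgeR adjusted p = 0.356) did not pass the threshold.

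Crabp1, the other cellular carrier (chr9:54612555-54620917), had 0.870, 1.43, 1.26 and 0.520 CPM in SAH mice. Control mice had 0.411 to 0.976 CPM, so that SAH 1 and SAH 4 lay inside and SAH 2 and SAH 3 above their range. At 8 to 39 counts per mouse a difference of 0.45 (standard error 0.29, edgeR adjusted p = 0.457) could not be told from the spread. Cyp26b1, the hydroxylase that clears retinoic acid in brain (chr6:84521408-84543902), had 28.3, 21.7, 14.2 and 17.2 CPM in SAH 1 to 4. Control mice ranged from 14.6 to 19.8 CPM, so SAH 1 and SAH 2 were above this range and SAH 3 just below it. The difference from control was 0.22 (standard error 0.15, edgeR adjusted p = 0.474). Without SAH 3, SAH 4 and Sham 7, the mice highest in choroid plexus markers, it was 0.56 (edgeR adjusted p = 0.01), an alternative chosen after the data were seen. It leaves 2 SAH mice and takes out those with the lowest Cyp26b1, Aldh1a2 and Crabp2, so larger differences had to follow. For the same reason it gave 1.23 for Aldh1a2 (edgeR adjusted p = 0.0069) and 1.90 for Crabp2 (edgeR adjusted p = 0.00362).

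**Figure D2:**
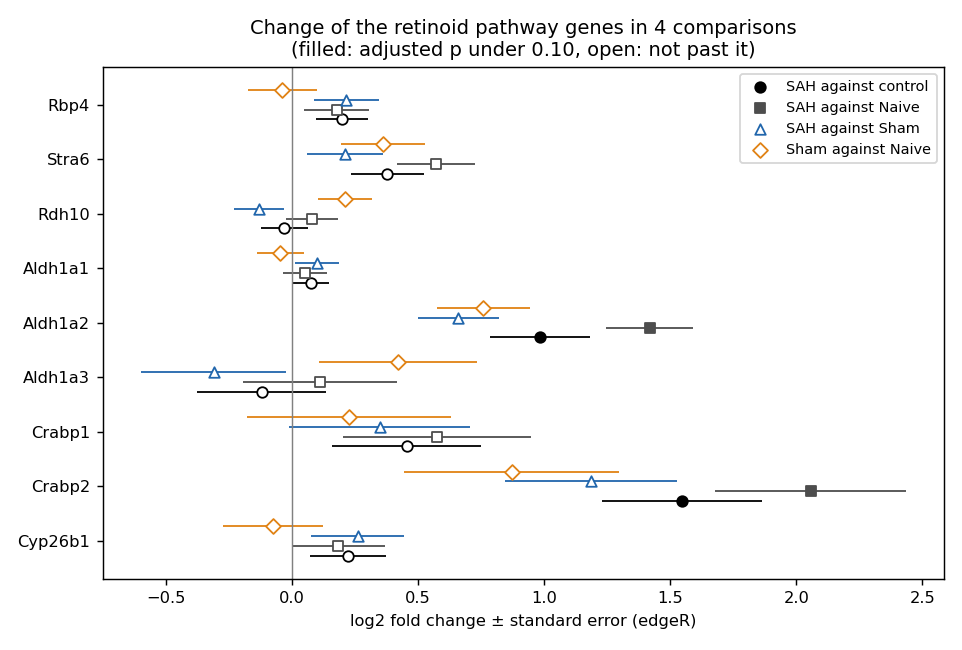
Log2 fold change of the 9 genes (horizontal axis, edgeR, bars are standard errors) in 4 comparisons told apart by marker shape, which share mice with each other. Filled markers passed an adjusted p under 0.10. Only Aldh1a2 and Crabp2 have filled markers, in SAH against control and in SAH against Naive.

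Counted over the members, 2 of 9 were called higher in SAH against control and 0 lower, where 3.13% of the 14993 genes tested were called higher. In SAH against Naive 2 of 9 were called higher, where 2.03% of 15134 genes were. In SAH against Sham the count was 0 of 9 by edgeR (0.529% of all genes called higher), with 2 higher at an unadjusted p under 0.05 (5.87% of all genes) and 2 called higher by DESeq2 (1.42%). In Sham against Naive it was 0 of 9 by edgeR (0.00661% of all genes, a single gene), with 2 higher at an unadjusted p under 0.05 (1.14%) and 0 by DESeq2 (0.0102%). SAH mice lay wholly above control mice for 2 of 9 members, against 2.83% of all genes tested. They lay wholly above Sham mice for 2 (5.03% of all genes) and above Naive mice for 3 (7.04%). Sham mice lay wholly above Naive mice for 2, Aldh1a2 and Stra6, against 4.84% of all genes. The median log2 fold change in SAH against control was 0.22 over the 9 members and −0.0024 over all genes.

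The members differed widely in level per length. In control mice the order of mean RPKM was Aldh1a1 with 30.2 ± 3.25 (SD, n = 6), Rbp4 with 6.11 ± 0.66, Rdh10 with 4.58 ± 0.524, Cyp26b1 with 3.60 ± 0.367 and Aldh1a2 with 2.21 ± 0.681. Below these came Stra6 with 2.14 ± 0.358, Crabp2 with 0.955 ± 0.425, Crabp1 with 0.923 ± 0.266 and Aldh1a3 with 0.231 ± 0.0625. The control mice's ranges overlapped between Rbp4 and Rdh10, Rdh10 and Cyp26b1, Aldh1a2 and Stra6, and Crabp2 and Crabp1, so these neighbours are not ordered beyond their spread. In Naive mice Aldh1a2 held rank 6 at 1.63 ± 0.37 RPKM (SD, n = 3), with a range that overlapped that of Stra6. Crabp2 held rank 8 there at 0.667 ± 0.22, with a range that overlapped that of Crabp1. In SAH mice Aldh1a2 held rank 4 at 4.40 ± 0.794 RPKM (SD, n = 4), with a range that overlapped those of Rdh10 and Cyp26b1. Crabp2 held rank 6 there at 2.85 ± 1.19, with a range that overlapped those of Rdh10, Aldh1a2, Cyp26b1 and Stra6. Aldh1a1 stood far above the rest in every group, so the enzyme that rose was not the most abundant one of its family.

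Markers of the meningeal fibroblast moved with Aldh1a2 and Crabp2. Of the 18 markers, 14 were called higher in SAH against control and 0 lower, beside 3.13% of all genes called higher. Their median log2 fold change was 0.98. Against Sham mice 5 of 18 were called higher by edgeR (median 0.72), beside 0.529% of all genes. There 9 were called by DESeq2 and 15 had an unadjusted edgeR p under 0.05. In Sham against Naive 1 of 18 was called higher, and 5 had an unadjusted edgeR p under 0.05. The log2 fold changes there were above 0 for 17 of 18, with a median of 0.33. Their sum was 478, 451, 250 and 352 CPM in SAH 1 to 4, 225, 238 and 231 in Sham mice, and 185, 176 and 178 in Naive mice. SAH mice were thus ordered 1, 2, 4 and 3, as they were for Aldh1a2 and for Crabp2, and Sham lay above Naive. Relative to the mean log2 CPM of these markers, Aldh1a2 stood at −0.06 ± 0.214 (SD) in SAH mice and at −0.17 ± 0.247 (SD) in control mice, a difference of 0.11 (2-sided exact permutation test, p = 0.533). On this scale Aldh1a2 was at 0.12, −0.01 and −0.09 in Sham mice and at −0.28, −0.59 and −0.15 in Naive mice, so that each Naive mouse lay below each Sham mouse, while SAH mice ranged from −0.18 to 0.26. Crabp2 stood at −1.76, −2.04, −2.07 and −2.35 in SAH 1 to 4 on this scale. In Sham mice it was at −2.21, −2.16 and −2.97, overlapping SAH, and in Naive mice at −2.36, −3.00 and −3.10. Crabp2 was higher relative to the markers in SAH than in control by 0.58 (p = 0.0476, same exact test). With the median over the markers it was higher by 0.46 (exact p = 0.0952), and the Aldh1a2 difference was −0.0138. The Crabp2 difference also missed 0.05 in 7 of the 10 sets with a mouse left out, with exact p-values up to 0.119. The other 7 members stood lower relative to the markers in SAH, by 0.54 (Crabp1) to 1.04 (Aldh1a3), which a gene with little change of its own must do where the markers rise, so no test is given for them. Whether fibroblasts supply the Aldh1a2 and Crabp2 counts was not tested. Markers of border macrophages and monocytes also rose, with 4 of 5 tested genes called and a sum of 14.3 to 18.2 CPM in SAH against 5.00 to 9.21 CPM in control. Mural and microglial markers had 3 of 8 called higher each. Oligodendrocyte markers had 6 of 6 called lower, with sums of 4550 to 5832 CPM in SAH and 6701 to 9307 CPM in control. The part of these cells in the members' results was not tested.

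**Figure D3:**
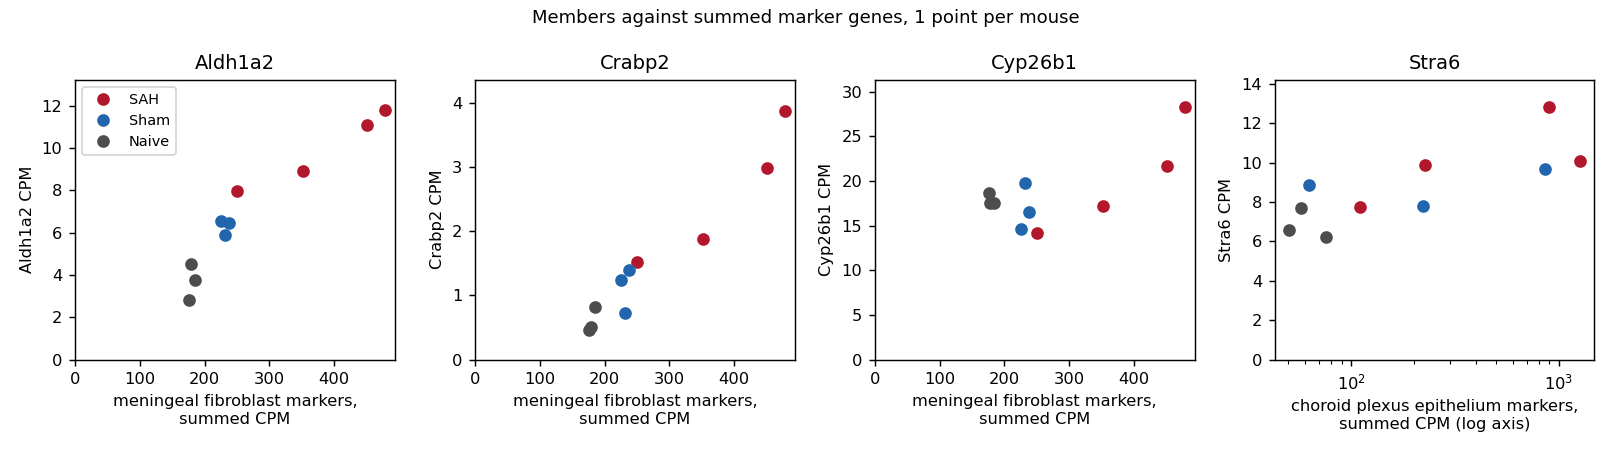
CPM of Aldh1a2, Crabp2 and Cyp26b1 against the summed CPM of 18 meningeal fibroblast markers, and of Stra6 against the summed CPM of 14 choroid plexus markers (log axis), with 1 point per mouse. Aldh1a2 and Crabp2 climb with the fibroblast sum across the groups, Cyp26b1 is high only in the 2 SAH mice with the highest sums, and the 3 mice with the highest choroid plexus sums have 9.66 to 12.8 CPM of Stra6, a range that also holds SAH 2 (9.86 CPM) with a low sum.

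The genes whose log2 CPM varied most like each member over the 10 mice were listed as a description, since all share the same libraries. For Aldh1a2 they were Fmod (Pearson r = 0.97), Thbs2 (0.96) and Ptgds (0.96), and over the 6 control mice alone r was 0.97, 0.95 and 0.99. Fmod, a collagen-binding proteoglycan, is itself on the fibroblast marker list, Thbs2 is a matrix protein, and Ptgds makes prostaglandin D2 and is abundant in the meninges. For Crabp2 they were Fmod (0.97), the complement gene C2 (0.96) and the macrophage chemokine gene Pf4 (0.95), with 0.89, 0.97 and 0.91 over control mice. For Cyp26b1 the nearest were the proliferation marker Mki67 (0.94), the protease gene Tll1 (0.93) and the spindle gene Tpx2 (0.89), with 0.88, 0.62 and 0.95 over control mice. Nearest to Stra6 were Mfsd1, Ccdc174 and Fam129a (0.96, 0.96 and 0.93), to Aldh1a1 Spg21, Micall2 and E030003E18Rik (0.95, 0.89 and 0.89), and to Rbp4 Prdx2, Ube2e3 and Arhgap28 (0.90, 0.89 and 0.88). Rdh10 was nearest to Gstz1, Ubl5 and Zbtb11os1 (0.90, 0.89 and 0.88), Crabp1 to Lancl1, Ninl and Tcta (0.93, 0.93 and 0.92), and Aldh1a3 to Flt3, Arhgap18 and Dcaf13 (0.96, 0.93 and 0.92). With 10 mice and so many genes, values of this size are found for every member.

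The rest of the retinoid pathway was taken from lists of 50 other genes, of which 48 are in the count tables and 30 were tested in SAH against control. There 1 was called higher, Tgm2, and 0 lower, a share near the 3.13% of all genes, with a median log2 fold change of 0.02. Tgm2, a transglutaminase that retinoic acid induces in many cells, had 13.5, 14.9, 26.6 and 20.6 CPM in SAH 1 to 4 against 9.06 to 12.7 CPM in control. It rose by 0.83 (standard error 0.17, edgeR adjusted p = 0.0169), and SAH 3 and SAH 4 were highest, unlike for Aldh1a2. Those are also mice with high choroid plexus markers, and with that score as a covariate Tgm2 was not called (0.53, edgeR adjusted p = 0.162), in a fit that called 141 genes higher in place of 470. Tgm2 was called in 8 of 9 alternatives, among them the fit without the 3 mice highest in choroid plexus markers. It was also called in 10 of 10 sets with a mouse left out. Sham 7, also high in these markers, had 12.7 CPM of Tgm2. Endothelial markers (8 genes, 3 called higher) summed to 149, 182, 233 and 285 CPM in SAH 1 to 4 and to 132 to 180 in control, and their part in the result was not tested.

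Of the 5 other retinol carrier and storage genes listed, Rbp2, Rbp3, Rbp7 and Lrat were too low to test, with 8 counts or fewer in every mouse. Ttr, which carries Rbp4 in plasma and is made in quantity by the choroid plexus, ran from 66.9 to 1110 CPM in SAH, from 24.8 to 740 in Sham and from 17.0 to 36.4 in Naive mice. It was called in SAH against Naive, with 4.30 on the log2 scale (standard error 1.13, edgeR adjusted p = 0.0874), and not against control (1.64, edgeR adjusted p = 0.427), other than without Sham 7 (3.25, edgeR adjusted p = 0.0599). The call against Naive was lost without SAH 3, SAH 4, Sham 5 or any 1 Naive mouse (edgeR adjusted p = 0.1 to 0.341) and in the robust fit (0.249). Ttr is also on the choroid plexus list, and its high mice are the 3 named above. In SAH against Naive 2 of 30 pathway genes were called higher, Tgm2 (0.99, edgeR adjusted p = 0.0272) and Ttr, and 0 lower, beside 2.03% of all genes. Leaving out any 1 Naive mouse ended the call of Tgm2 there (edgeR adjusted p = 0.101 to 0.155). In SAH against Sham and in Sham against Naive edgeR called 0, with 3 and 1 at an unadjusted p under 0.05, and DESeq2 called 1 and 0.

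Of the 6 retinoic acid and retinoid X receptors, 0 were called in SAH against control by edgeR or by DESeq2, and 0 had an unadjusted p under 0.05. Rara, Rarg and Rxra differed by 0.05, 0.09 and 0.12 on the log2 scale, and Rarb, Rxrb and Rxrg by −0.16, −0.06 and −0.28, with edgeR adjusted p-values between 0.296 and 0.841. Rarb, whose promoter is printed above, had 4.55 to 6.99 CPM in SAH and 5.45 to 7.35 CPM in control. Cyp26a1, the other gene with a printed repeat, had 0.253 to 0.699 CPM in SAH and 0.294 to 1.09 CPM in control, a difference of −0.41 (standard error 0.35, edgeR adjusted p = 0.574). Dhrs3, a reductase that turns retinaldehyde back to retinol and is induced by retinoic acid, differed by 0.05 (standard error 0.08, edgeR adjusted p = 0.758). Of the 11 retinoic acid-induced genes listed 7 were tested, and 1 (Tgm2 again) was called higher, with a list median of −0.05. Of the 10 tested retinol and retinaldehyde oxidoreductases, the 6 coregulators and the 2 tested genes of beta-carotene uptake and cleavage, 0 were called by edgeR or DESeq2, with 1, the uptake receptor gene Scarb1 (0.26), at an unadjusted p under 0.05. Aldh1a7, a close relative of Aldh1a1, had 1 to 11 counts and did not pass the filter. By DESeq2, without that filter, it differed by −1.29 (adjusted p = 0.277). Reads that fit both it and Aldh1a1 would have been dropped in the counting.

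**Figure D4:**
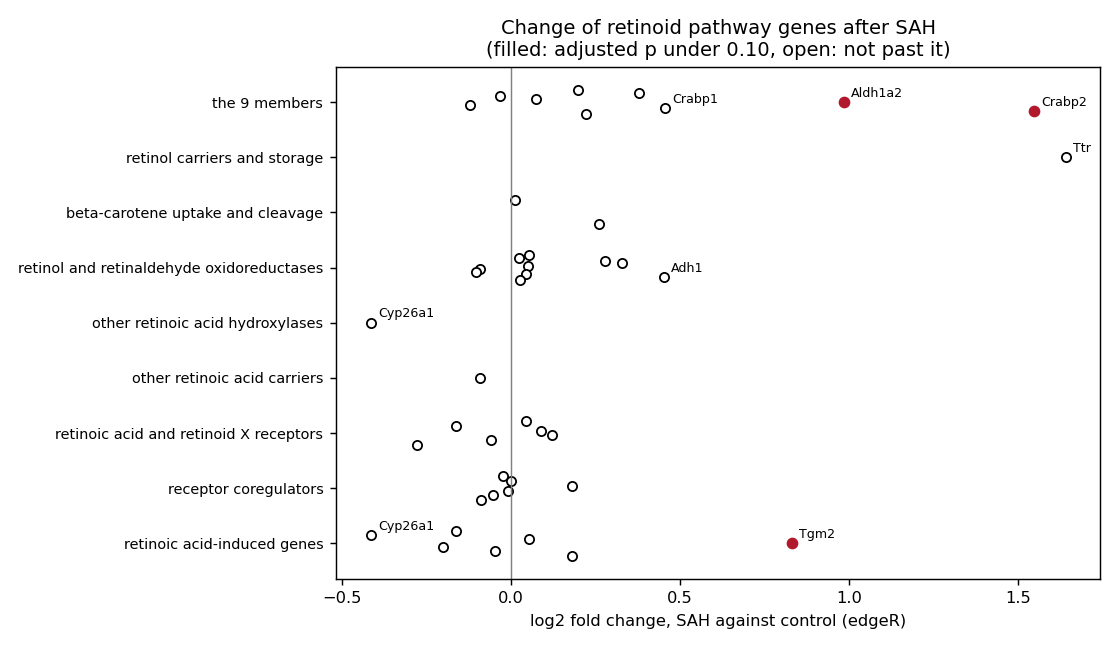
Log2 fold change in SAH against control (edgeR, horizontal axis) of the 9 members and of the tested genes of each retinoid pathway list (rows), 1 point per gene. Filled points passed an adjusted p under 0.10, which were Aldh1a2 and Crabp2 among the members and Tgm2 elsewhere. Cyp26a1 and some others are in more than 1 list. Receptors range from −0.28 to 0.12 and coregulators from −0.09 to 0.18.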

How the data were processed

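Stranded libraries of total RNA, freed of ribosomal RNA, were sequenced as read pairs. The authors aligned them with STAR (mm9) and counted sense fragments on exons by gene name with featureCounts 1.6.2. Reads that fitted several places or several genes were discarded, which can lower genes with close copies. The submitters' processing notes also list GRCh38, but gene coordinates in the files are those of mm9. The deposited values are raw counts per gene, 1 file per mouse, without normalization. Of the 12 pairs of libraries within a group, 0 agreed within sampling noise.

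CPM, RPKM and tests were computed here from these counts with edgeR 4.0.16 (R 4.3.3), TMM scaling and filterByExpr (minimum count 10, minimum total 15). SAH against control came from a fit of these groups, and the pairwise comparisons from a fit of SAH, Sham and Naive. The quasi-likelihood test was run over all genes with Benjamini-Hochberg adjustment, and the fit was tested on simulated data. The standard error is the log2 fold change divided by the square root of F. Levels relative to markers used log2 CPM (prior count 2) and 2-sided exact permutation tests over mice. Mice are separate animals. Replicate numbers do not pair groups.

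The members, gene lists and markers were chosen with earlier results of these data known. All 9 members are named with values, other pathway genes by list, with values for the called ones, the receptors, Ttr, Dhrs3 and Aldh1a7. Values for Rarb's and Cyp26a1's promoters and for Cyp26a1 and Tgm2 follow from the same lists. For likeness the 3 tested genes of highest Pearson r were taken. Alternatives were DESeq2 1.42.0, its size factors, library size alone, a minimum of 10 counts in every mouse, no filter, a robust fit, other groupings of the fit, a choroid plexus covariate, a threshold of 0.05, a prior count of 0.5, the median over markers, markers without collagens and proteoglycans, and each mouse left out. Leaving out the 3 mice highest in choroid plexus markers was added after the data were seen. Protein sequences were not used here, and 1 further pathway gene is not reported here.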

Additional observations from a re-analysis of the deposited data

Results flagged for a closer look

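The level of Aldh1a1 in SAH 2 was flagged for standing apart within its group. It was 60.8 CPM where the other 3 SAH mice had 65.8 to 66.6 CPM, so that 0.871 of the group's whole range lay between it and its nearest neighbour. The control mice spanned a wider range, 53.3 to 69.7 CPM, which contains it. This was 1 flag in 18 groups looked at, and chance alone flags about 1 in 20.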

How the results depend on the processing

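Aldh1a2 and Crabp2 were called in SAH against control in every fit that tested them, with log2 fold changes of 0.87 to 1.07 and 1.29 to 1.74 when each mouse was left out. With at least 10 counts required in every mouse 1 member was called there and 1 in SAH against Naive, since Crabp2 was then not tested. In SAH against Naive the count ran from 1 to 3 with a mouse left out (1 without Naive 9, 3 without SAH 1). In SAH against Sham it was 2 by DESeq2, 1 with no filter, 3 without the 3 mice highest in choroid plexus markers, and 0 to 2 with a mouse left out (2 without SAH 3). The cause of these changes was not tested. Of the 3 mice, 2 are the SAH mice lowest in the genes called.

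Stra6 against Naive passed the threshold in 5 of 8 alternatives. Directions turned only for differences that were not called. Without the 3 choroid-high mice Aldh1a3 stood at 0.23 and Rdh10 at 0.0599 against control, and Aldh1a3 at 0.11 against Sham. With a mouse left out, the ranges against control were −0.22 to 0.0282 for Aldh1a3 and −0.0868 to 0.0146 for Rdh10. Against Naive SAH ranged from −0.0196 to 0.11 for Aldh1a1, −0.055 to 0.32 for Aldh1a3 and −0.0104 to 0.32 for Cyp26b1. Sham against Naive ranged from −0.16 to 0.0374 for Aldh1a1, −0.0006 to 0.58 for Crabp1, −0.16 to 0.0668 for Rbp4 and −0.20 to 0.0204 for Cyp26b1. Relative to fibroblast markers, the median over markers gave −0.0138 for Aldh1a2 and 0.46 for Crabp2 (exact permutation p = 0.0952), leaving collagens and proteoglycans off the marker list gave 0.23 (exact p = 0.105) and 0.70 (exact p = 0.0286), and Crabp2 ranged from 0.48 to 0.67 with a mouse left out.

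No paired analysis was possible because the groups share no replicate number. Depth limits Crabp1, Aldh1a3 and, in control, Crabp2, with as few as 8 counts in a mouse.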
